A study of Mus musculus with 2 samples.

Results

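The cells described here are the pericytes and vascular smooth muscle cells of the mouse submandibular salivary gland, measured in a library from glands with clipped ducts and in a library from mock-operated glands. They are the cells of cluster 6 of the authors' clustering of all cells, chosen by that cluster's columns in the deposited tables of cluster means. Cluster 6 held 581 of 15605 cells, 420 of 11406 in the ligated library and 161 of 4199 in the mock library, as recovered from the means.

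Female C57BL6/J mice aged 14 weeks had either a ligation, in which a metal clip closed the main ducts draining the submandibular and sublingual glands, or a mock operation that left those ducts unclipped. Glands of both groups were taken 14 days after surgery, and 2 glands went into each library. In both groups, beads against EpCAM and Ter119 removed epithelial and red blood cells from the suspension in 2 rounds, dead cells were then removed, and the rest were captured with the 10X Genomics droplet system. There was 1 library per group, so there was no replicate check, no test between the groups was possible, and a difference between the libraries cannot be told apart from a difference between dissections, mice or captures.

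Mural cells sit on the outside of blood vessels. Pericytes lie within the basement membrane of capillaries and venules, while vascular smooth muscle cells wrap arterioles, arteries and larger veins and set vessel width by contraction. Both depend on platelet-derived growth factor from the endothelium, received by PDGFRB, and on NOTCH3; pericytes of many tissues carry an ATP-sensitive potassium channel of KCNJ8 and ABCC9, and contractile smooth muscle is built around ACTA2 and MYH11. In salivary glands the blood supply provides the water that becomes saliva.

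Values are mean UMIs (counted mRNA molecules) of a gene per 10000 UMIs of a cell, averaged over the cells of a cluster. Total UMIs could be recovered for 90 of the mock cells of cluster 6, with a median of 6486 and a range of 1119 to 28645, and for 205 of the ligated cells, with a median of 4948 and a range of 746 to 31181. At these depths a single UMI in a single cell gave a cluster mean of 0.00958 in the mock and 0.00481 in the ligated library. Markers of other cell types stood at a median of 8.06% of their mock library mean and 21.8% of their ligated library mean within cluster 6, over 72 markers, of which 57 had the higher share in the ligated library. Macrophage markers summed to 0.192 in mock and 2.12 in ligated cells, with 9 of 11 at 0 in mock, Csf1r and Adgre1 among them, and 1 of 11 at 0 in ligated. Natural killer markers summed to 0.0856 and 7.02, with 4 of 9 at 0 in mock, Ncr1 among them, and 0 of 9 in ligated. Endothelial markers summed to 21.9 in mock and 16.1 in ligated cells, and fibroblast markers to 11.9 and 13.2. The near-equal fibroblast sums were led by Col3a1, at 4.76 and 3.63, and Gsn, at 3.83 and 5.18. Pdgfra was at 0.00596 in mock and 0.0896 in ligated cells, Lum at 0.00289 and 0.313, and Dcn at 0.623 and 2.11. Of the fibroblast markers only Col1a1, Col3a1 and Pi16 were lower in ligated cells. T cell markers summed to 0.154 and 2.13. Haemoglobin and other erythroid markers summed to 8.73 and 1.32. The part of this signal in the differences between the libraries was not tested, beyond the subtraction described below.

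Cluster 6 made up 3.83% of the mock cells (95% interval 3.27 to 4.46, Clopper-Pearson exact) and 3.68% of the ligated cells (3.34 to 4.04). The intervals overlap and cover counting error only. Against the other structural cells the proportion was different. Of the cells in the endothelial-like clusters 0 and 4, the fibroblast-like cluster 3 and cluster 6 together, cluster 6 was 5.48% (4.68 to 6.37) in mock and 8.32% (7.57 to 9.12) in ligated. There were 6.22 cluster 6 cells per 100 endothelial-like cells in mock and 12.1 in ligated, but 85.6 per 100 fibroblast-like cells in mock and 36.6 in ligated. These counts include the cells of cluster 6 with another profile that are described below. Cells outside the mural-like cluster of the authors' subset were 20.5% of cluster 6 in mock and 34.8% in ligated. Bead depletion and dissociation can also set such proportions, and their part was not tested.

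The 5 defining markers were at their highest in cluster 6 of all 12 clusters in the joint table of both libraries. Rgs5, a regulator of G-protein signalling used as a pericyte marker, stood at 60.9 against 1.81 in the next highest cluster. Kcnj8, the pore of the potassium channel, stood at 12.3 against 0.258, and its partner Abcc9 at 9.89 against 0.464. Pdgfrb, the growth factor receptor, was at 12.7 against 3.89 in the fibroblast-like cluster 3, and the smooth muscle actin Acta2 was at 24.9 against 3.07. The markers of both the pericyte and the smooth muscle kind therefore lay in the same cluster.

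Among the 20 genes most enriched over the highest other cluster were Kcnj8, Rgs5, Higd1b, Cox4i2, Notch3, Carmn, Abcc9, Myh11, Gucy1a1, Vtn, Serpini1, Rgs4, Gucy1b1, Tagln, Olfr558, Tpm2, Pde5a, Ppp1r14a and Colec11. They span the potassium channel (Kcnj8, Abcc9), the nitric oxide receptor and the enzyme that degrades its messenger (Gucy1a1, Gucy1b1, Pde5a), the contractile apparatus (Myh11, Tagln, Tpm2, Ppp1r14a), and Carmn, a long noncoding RNA of smooth muscle. Olfr558, an olfactory receptor gene, was at 3.02 against 0.145. A value of at least 0.5 that was at least 2-fold that of every other cluster (0.1 added to each value) was reached by 167 of 16455 genes, or 1.01%. Because the clusters were made from these same genes, this is a description of the cluster and not a test.

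**Figure D1:**
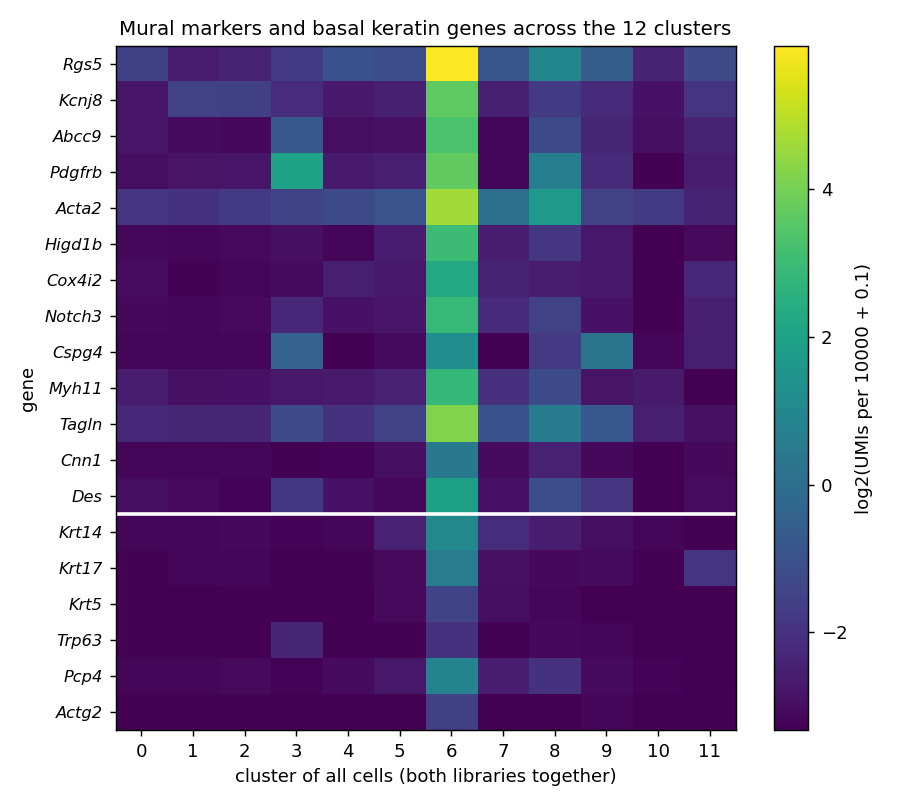
Heat map of 13 markers of pericytes and smooth muscle (above the white line) and 6 genes of basal or myoepithelial cells or chosen after their values were seen (below it) in the 12 clusters of all cells, both libraries together, as log2(UMIs per 10000 + 0.1). Cluster 6 is the brightest column for both groups of genes.

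Cluster 6 also contained cells with another profile. The authors' separate clustering of a subset of cells, named after the Pdgfr genes and Gli1, has a mural-like cluster 2 of 128 mock and 274 ligated cells, led by the same markers. In the mock library the summed values of these 128 cells never exceeded those of cluster 6 (0 of 12361 genes), so subtracting them gives a mean for 33 remaining cells, 20.5% of cluster 6 (exact interval 14.5 to 27.6). In the ligated library 146 cells remained, 34.8% (30.2 to 39.5), and that mean is approximate, because 106 of 13110 genes had a larger sum in the subset than in cluster 6.

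The mean of the remaining cells included the keratins of basal and myoepithelial cells, the contractile epithelial cells that surround salivary acini. Krt14 was at 3.03 in the mock remainder and 6.95 in the ligated remainder, against 0 and 0.0667 in the mural-like cluster of the subset. Krt17 was at 2.31 and 4.94 in the remainder against 0 and 0.0815, and Krt5 at 0.403 and 0.95 against 0 and 0.0273. The basal transcription factor gene Trp63 was at 0.193 and 0.538 against 0 and 0.0104. In the joint table Krt14 stood at 1.95 in the whole of cluster 6 and at no more than 0.132 in any other cluster. Pcp4, Actg2 and Igfbp2, chosen after their values were seen, followed the same pattern: Pcp4 was at 8.11 and 4.78 in the remainder and at 0.0115 and 0.0285 in the subset cluster.

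Acta2 was higher in the remainder than in the subset cluster, at 62.0 against 28.6 in mock and 35.7 against 12.8 in ligated. Cnn1, a calponin that binds actin, showed the same order, at 4.85 against 0.397 in mock and 3.34 against 0.0492 in ligated. Rgs5 had the reverse order, at 32.6 against 84.0 in mock and 24.2 against 73.1 in ligated, as did Kcnj8, at 6.64 against 19.6 and 4.21 against 13.9. Pdgfrb was at 3.14 against 15.2 and 3.60 against 17.5, but the subset bears this gene's family name and may have been chosen by it, so its order is no finding. The remainder also held endothelial Pecam1, at 5.30 in mock and 3.65 in ligated, and in the ligated library Nkg7 of natural killer cells at 5.35. The markers of pericytes and vascular smooth muscle thus fit the label for most of cluster 6. The remainder is a mean that held them too, beside keratin and endothelial markers. Its Rgs5 and Kcnj8 stood above those of the highest other cluster, at 1.81 and 0.258. Of the summed Acta2 value of cluster 6, the remainder held 35.9% in mock and 59.7% in ligated cells. For Tagln the shares were 29.7% and 62.9%, for Cnn1 75.9% and 97.3%, and for Rgs5 9.10% and 15.0%. Values within the mural-like cluster of the subset are given below for some genes only, and a value left out does not mean that a call held there. They come from largely the same cells as those of cluster 6 and are not a replicate.

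**Figure D2:**
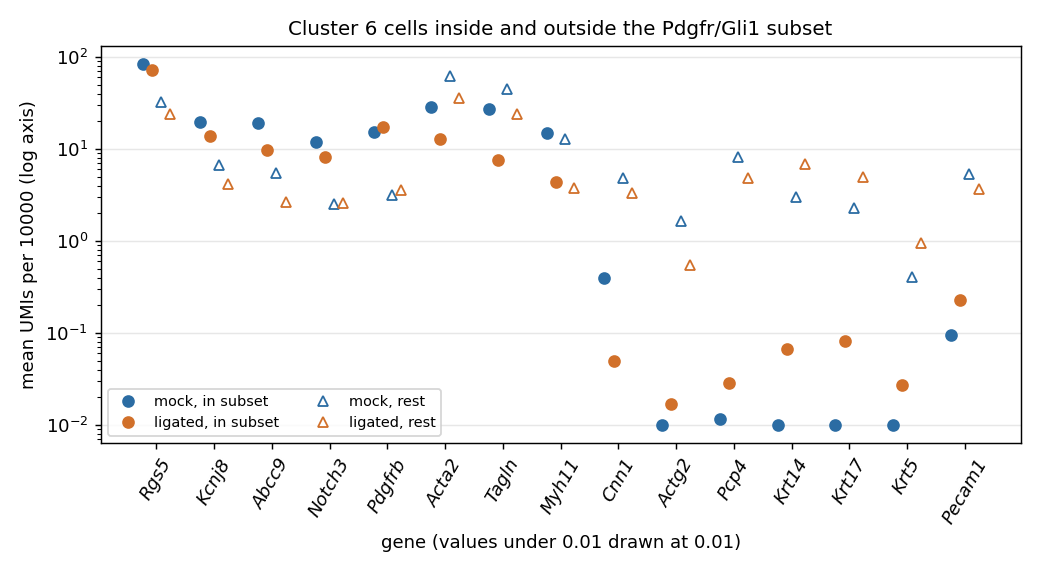
Mean UMIs per 10000 (log axis) of 15 genes in the cells of cluster 6 that lie in the mural-like cluster of the subset (filled circles) and in the remaining cells (open triangles), for the mock (blue) and ligated (orange) libraries, 1 library each with no error bars. Krt14, Krt17, Krt5, Pcp4, Actg2 and Cnn1 are higher in the remainder in both libraries, and Rgs5, Kcnj8, Abcc9 and Notch3 in the subset cells.

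The difference of a gene between the libraries is given as log2((ligated + 0.1)/(mock + 0.1)), so 1 is a 2-fold change, and the added 0.1 understates changes of low genes. A gene is called higher or lower where its larger value is at least 0.5 and its difference at least 1 in size; this is a rule of size, not a test. In cluster 6 the ligated library was higher for 147 of 16455 genes (0.893%) and lower for 150 (0.912%), with a median difference of 0 over all genes. After subtraction of the other-cell share of each library's mean profile, which moved the median over 10554 measurable genes from -0.01 to -0.17, the counts were 56 higher and 256 lower. Of the genes called at first, 55 of the higher and 142 of the lower were also called then. Values that fell below 0 in the subtraction were set to 0. It took 21.8% of the library mean profile from ligated and 8.06% from mock values, which by itself favours lower calls. The 167 genes enriched in cluster 6 leaned to the mock library, with 6 higher, 23 lower and a median of -0.40, which was -0.30 in the mural-like cluster of the subset. Where differences were centred on the enriched genes' median of -0.40, a choice made after seeing the data, 373 genes were higher and 55 lower. The balance of calls thus depends on whether genes at large or the enriched genes are taken as level. The enriched genes are not all mural, as they include Krt14 and Krt17. In cluster means, fewer contractile cells and less contractile mRNA per cell cannot be told apart.

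**Figure D3:**
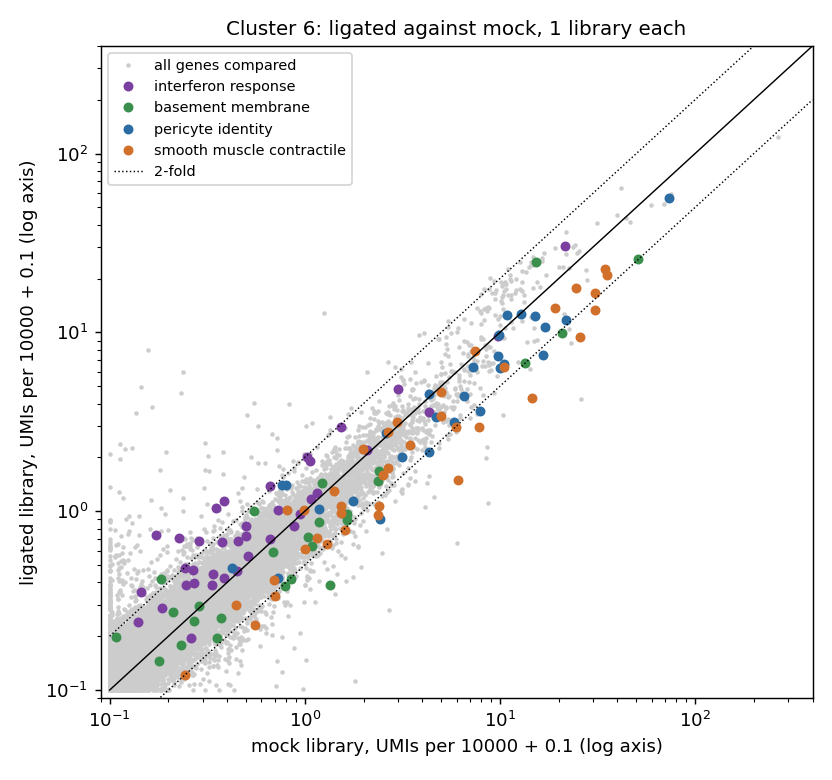
Values in cluster 6 in the mock (horizontal) and ligated (vertical) library for 16455 genes, as UMIs per 10000 + 0.1 on log axes, with the line of equality and dotted lines at 2-fold. Most smooth muscle contractile genes (orange) lie below the line of equality, and most interferon response genes (purple) lie above it.

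The contractile apparatus of smooth muscle was lower in the ligated library. Of 37 contractile genes, all measurable, 0 were higher and 10 lower, beside 1.39% higher and 1.42% lower among all genes with a mean of both values of at least 0.05, and their median difference was -0.70 beside -0.01. The 10 were Tagln, Myh11, Tpm2, Synpo2, Flna, Actn1, Sorbs2, Ppp1r14a, Csrp1 and Synm, of which 8 were also lower after the subtraction and in the subset cluster (all but Synpo2 and Synm). In the subset cluster the median over the same genes was -0.74, with 0 higher and 13 lower, beside 0.693% and 0.839% of all genes there. The direction of the median held when differences were centred on the mural genes, at -0.30.

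Myh11, the smooth muscle myosin heavy chain, was at 14.4 in mock and 4.20 in ligated cells, a difference of -1.76, and at 14.9 and 4.42 in the subset cluster. Tagln, which binds and stabilises actin filaments, was at 30.7 and 13.3 (-1.20), and at 27.1 and 7.55 in the subset cluster (-1.83). Tpm2, a tropomyosin of the thin filament, was at 25.8 and 9.34, a difference of -1.45. Each of these was higher in the mock library by more than 2-fold in both groupings of the cells. Ppp1r14a, an inhibitor of the phosphatase that switches myosin off, differed most in the list, at 5.97 in mock and 1.39 in ligated cells (-2.03). The phosphatase's targeting subunit Ppp1r12a was nearly level, at 4.89 and 4.53 (-0.11), while the kinase that activates myosin, Mylk, stood at 10.4 and 6.34 (-0.71).

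Acta2 stood at 35.4 in mock and 20.8 in ligated cells, a difference of -0.77 that misses the size rule, and at 28.6 and 12.8 in the subset cluster (-1.15). Cnn1 was nearly level in cluster 6, at 1.31 and 1.19, but in the subset cluster it was at 0.397 and 0.0492, both under the minimum value of the rule. For Acta2, Tagln and Cnn1 the difference was thus larger without the keratin-bearing remainder than with it. Flna, which crosslinks actin, was at 7.70 and 2.85 (-1.41), and Actn1, an actinin, at 2.29 and 0.974 (-1.16). The desmin gene Des differed less, at 4.89 and 3.29 (-0.56). At the other end of the list were Rbpms, an RNA-binding protein gene, at 7.32 and 7.75 (0.08), Mustn1 at 1.88 and 2.13 (0.17) and Olfr558 at 2.88 and 3.07 (0.09).

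Many contractile genes are known to be switched on by serum response factor through a CArG box, so the promoters of the list were searched for it. The box is CC, then 6 bases of A or T, then GG; it reads the same way on both strands. The 250 bases before each RefSeq start site of GRCm38.p6 were searched, and they were at hand for 30 of the 37 contractile genes. The exact box lay in 3 of these 30 (10.0%: Ldb3, Myl9 and Vcl), in 0 of 24 pericyte genes and in 1.62% of 27025 genes. With 1 of the 6 central bases allowed to be C or G, the shares were 8 of 30 (26.7%), 1 of 24 (4.17%) and 9.78%. The windows below, each upstream of a start site, are shown because their genes are the actin, the myosin light chain and 2 attachment proteins of the list. Capitals mark the box.
Acta2, chr19:34255426-34255479, minus strand, box starting 84 bases before the start site: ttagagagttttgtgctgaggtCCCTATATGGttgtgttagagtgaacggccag
Acta2, chr19:34255376-34255429, minus strand, box starting 34 bases before: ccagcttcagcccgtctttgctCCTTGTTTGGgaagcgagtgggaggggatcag
Myl9, chr2:156775281-156775334, plus strand, 161 bases before: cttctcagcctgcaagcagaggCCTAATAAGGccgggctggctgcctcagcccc
Myl9, chr2:156775343-156775396, plus strand, 99 bases before: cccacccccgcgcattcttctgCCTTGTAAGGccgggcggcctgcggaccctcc
Vcl, chr14:20929149-20929202, plus strand, 227 bases before: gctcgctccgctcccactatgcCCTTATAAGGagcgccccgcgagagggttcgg
Ldb3, chr14:34588685-34588738, minus strand, 35 bases before: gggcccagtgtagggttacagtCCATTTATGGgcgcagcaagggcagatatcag

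Of the 8 genes with an exact or relaxed box, 1 passed the size rule: Synm, which encodes the intermediate filament protein synemin, was at 0.603 in mock and 0.235 in ligated cells (-1.07). Myl9, the regulatory light chain, was at 30.6 in mock and 16.5 in ligated cells (-0.89). Vcl, the vinculin gene of cell-matrix attachments, was at 3.35 and 2.26 (-0.55), and Ldb3, of the muscle Z line, was low in both, at 0.143 and 0.0211. Crip1, a LIM domain gene with the relaxed box, was at 34.4 and 22.5 (-0.61). Pcp4l1 and Pdlim3, which also held the relaxed box, did not pass the rule, at 2.56 and 2.67 (0.06) and at 0.709 and 0.914 (0.33). Srf, which encodes serum response factor itself, was at 0.296 and 0.0275, a difference of -1.64 below the rule's minimum value. A match is a description of the letters in these windows, not evidence of binding.

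**Figure D4:**
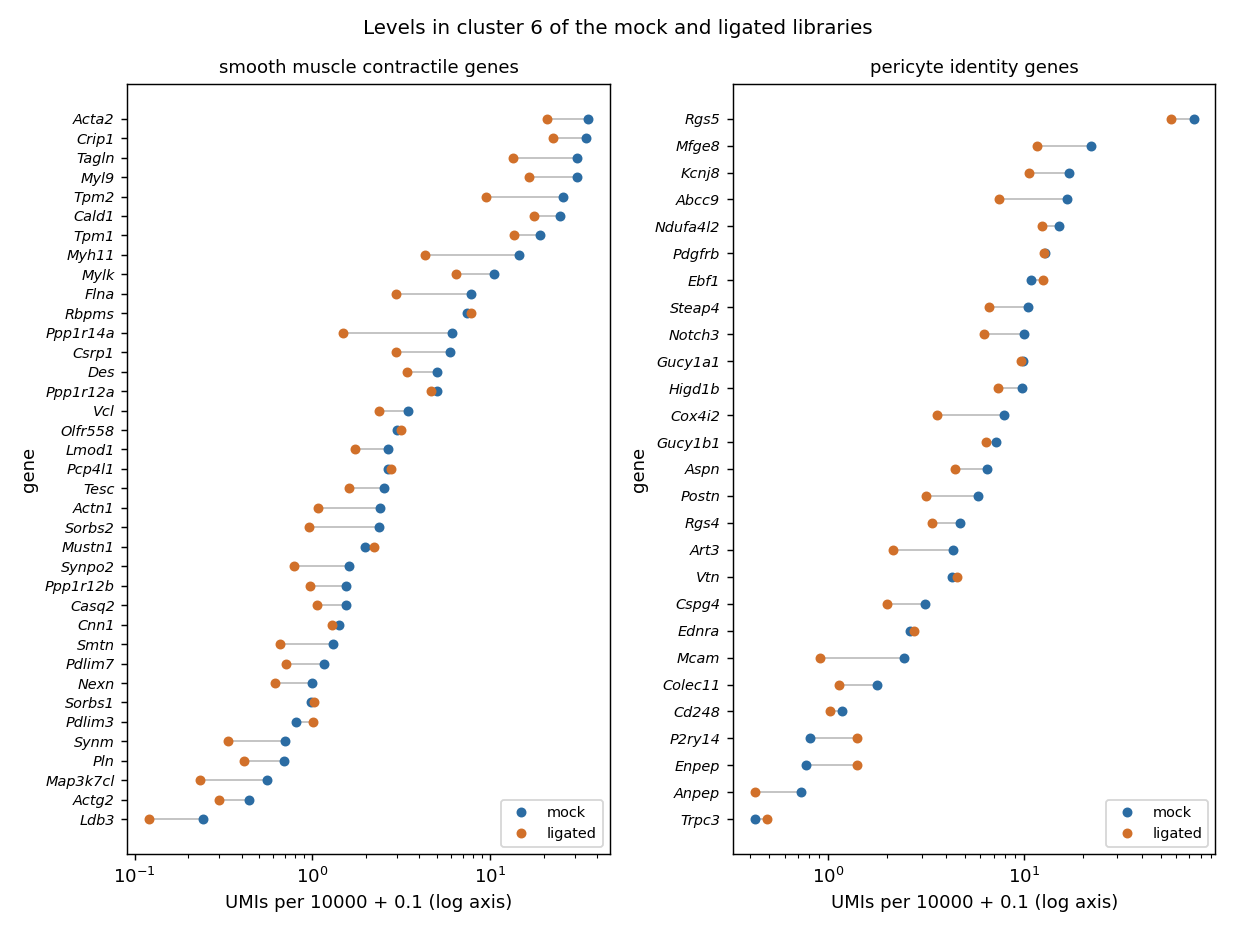
Levels in cluster 6 of the 37 contractile genes (left) and the 27 measurable pericyte identity genes (right) in the mock (blue) and ligated (orange) library, as UMIs per 10000 + 0.1 on a log axis, 1 library each with no error bars. The ligated point lies to the left for 31 of the 37 contractile genes, while Pdgfrb, Gucy1a1 and Vtn nearly coincide.

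Pericyte identity genes were lower as a group by a smaller amount, and not all of them. Of 27 measurable genes among the 30 in the list, 0 were higher and 4 lower (Abcc9, Cox4i2, Mcam and Art3), beside 1.39% and 1.42% of all measurable genes, with a median difference of -0.48. The median over the same genes was -0.31 in the subset cluster. Cox4i2 and Mcam were also called lower there, while Abcc9 (-0.97) and Art3 (-0.81) were not. It came to -0.075 when differences were centred on the mural genes, so relative to other mural genes the list was close to level.

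Pdgfrb was level, at 12.7 in mock and 12.6 in ligated cells (-0.01). It was at 15.2 and 17.5 in the subset cluster (0.20), but that subset may have been chosen by this gene, so these values add no support. Rgs5 was at 73.5 and 56.1 (-0.39), a gap that narrowed to 84.0 and 73.1 in the subset cluster (-0.20). Vtn, which encodes vitronectin, was at 4.21 and 4.44 (0.08). The subunits of the nitric oxide receptor were likewise near level, Gucy1a1 at 9.84 and 9.53 (-0.05) and Gucy1b1 at 7.14 and 6.33 (-0.17). Thus the receptor that receives the endothelial growth factor and the receptor for nitric oxide differed little between the libraries.

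The potassium channel of pericytes differed more. Abcc9, its sulfonylurea-binding subunit, was at 16.5 in mock and 7.35 in ligated cells (-1.16), and at 19.4 and 9.85 in the subset cluster (-0.97). Its pore Kcnj8 was at 16.9 and 10.6 (-0.68). Cox4i2, a lung and pericyte form of a cytochrome oxidase subunit, was at 7.80 and 3.52 (-1.13), and Mcam, the adhesion molecule CD146, at 2.34 and 0.807 (-1.43). Mfge8, a secreted bridge to apoptotic cells, was at 21.8 and 11.6 (-0.91). Above their mock values stood Enpep, an aminopeptidase that cleaves angiotensin, at 0.668 and 1.30 (0.87), and P2ry14, a receptor for UDP sugars, at 0.704 and 1.30 (0.80), neither past the rule.

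Among 34 measurable ion channel and calcium handling genes, 0 were higher and 2 lower, beside 1.39% and 1.42% of all measurable genes. Their median of -0.40 became level when centred on the genes enriched in cluster 6. Beside Abcc9 the lower gene was Atp2a2, the pump that returns calcium to the sarcoplasmic reticulum, at 5.84 in mock and 2.68 in ligated cells (-1.09). The calcium release channel gene Itpr1 was at 2.03 and 0.995 (-0.96).

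Receptors for vessel-narrowing signals differed from each other. Of 50 vasoactive receptor and cyclic nucleotide genes, 0 were higher and 6 lower, beside 1.39% and 1.42% of all measurable genes. Their median was -0.30, and in the subset cluster 4 were lower. Ednrb, an endothelin receptor, was at 23.03 in mock and 8.65 in ligated cells (-1.40), and at 26.7 and 10.9 in the subset cluster (-1.28). The other endothelin receptor, Ednra, was level, at 2.50 and 2.65 (0.08). Agtr1a, an angiotensin receptor, was at 2.37 and 1.11 (-1.03), but its difference of -0.88 in the subset cluster missed the rule. Of the receptors for these vessel-narrowing peptides, Ednrb and Agtr1a were thus lower in the ligated cells of cluster 6 and Ednra was not. Of them only Ednrb also passed the rule in the subset cluster.

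The sphingosine phosphate receptor gene S1pr3 was at 1.30 and 0.394 (-1.50). P2rx1, an ATP-gated channel of smooth muscle, was at 0.668 and 0.0260 (-2.61), but its value in the mock cells of the subset cluster lay just under the minimum of the rule. Rhob, a small GTPase that immediate early signals also induce, was at 8.45 and 2.20 (-1.90) and was lower by the same rule in 4 of the other 8 compared clusters. Of 12 measurable Rgs genes only Rgs1 was higher, at 0.0120 and 1.18 (3.52). It is abundant in lymphocytes, and the subtraction left little or nothing of it in either library (difference 0.00).

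Counts in the growth factor pathways, and in every list after them, are read beside the 1.39% higher and 1.42% lower among all measurable genes. None of 6 PDGF genes was called, and Pdgfa was at 3.40 in mock and 1.91 in ligated cells (-0.80). In the Notch pathway 1 of 23 genes was higher and 0 were lower: Dlk1, a Notch ligand-like gene, was at 0.158 and 0.561 (1.36), and at 0.151 and 0.813 in the subset cluster (1.86). Notch3 was at 9.87 and 6.19 (-0.66), and its target Heyl at 2.34 and 1.83 (-0.34). No member of 12 IGF axis genes was called. In the VEGF and angiopoietin pathway 0 of 15 were higher and 2 lower; Angptl2, a secreted angiopoietin-like protein, was at 3.37 and 1.44 (-1.17), while Kdr, an endothelial receptor, was at 2.55 and 1.18 in cluster 6 but at 0.139 and 0.230 in the subset cluster.

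In the TGF-beta and BMP pathway 1 of 33 genes was higher and 2 were lower. Bmp2, a secreted bone morphogenetic protein, was at 0.661 in mock and 0.0970 in ligated cells (-1.95), and its receptor Bmpr1a at 1.09 and 0.485 (-1.02). Id2 was higher, at 0.283 and 1.51 (2.07), whereas its relative Id4 was at 3.26 and 1.65 (-0.94) and Id3 at 7.90 and 9.15 (0.21). After the subtraction 0 of the 33 genes were called higher, so Id2 no longer passed the rule. In the subset cluster 1 of the 33 was higher and 1 lower. Of 35 mural and muscle transcription factor genes 0 were higher and 1 lower, Zbtb16, at 0.847 and 0.108 (-2.19); it also differed by -2.35 in the endothelial-like cluster 0 and by -2.45 in the fibroblast-like cluster 3. The pericyte factors Ebf1, at 10.8 and 12.4 (0.20), and Foxs1, at 2.92 and 2.83 (-0.04), were nearly level.

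The basement membrane, the sheet of matrix in which mural cells lie, had lower values in the ligated library. Of 27 genes 0 were higher and 4 lower, beside 1.39% and 1.42% of all measurable genes, with a median of -0.54. In the subset cluster 2 were lower and the median was -0.40. Col4a1, a chain of type IV collagen, was at 20.7 in mock and 9.80 in ligated cells (-1.07), but its difference of -0.99 in the subset cluster missed the rule. Its partner Col4a2 was at 13.3 and 6.61, just short of the rule. Ntn4, a laminin-binding netrin, was at 1.25 and 0.288 (-1.80). Col15a1 was lower in cluster 6 but at 0.117 and 0.140 in the subset cluster, and Col18a1 was lower in both. Sparc, which binds collagen, and its relative Sparcl1 went opposite ways: Sparc was at 50.8 and 25.8 (-0.98) and Sparcl1 at 15.2 and 24.6 (0.69), neither past the rule.

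Fibrillar matrix genes build scar tissue. Of 29 such genes 1 was lower and 1 higher, beside 1.42% and 1.39% of all measurable genes. The higher gene was Dcn, at 0.623 in mock and 2.11 in ligated cells (1.61), which is abundant in fibroblasts. It was higher by the same rule in 6 of the other 8 clusters, and at 0.311 and 1.22 in the subset cluster. Its difference of -0.54 after the subtraction is not a reversal, because the amount subtracted exceeded its ligated value and nothing was left there. P4ha2, a collagen prolyl hydroxylase, was lower, at 0.523 and 0.172 (-1.19). Col1a2 was at 4.15 and 2.67 (-0.62) and Col3a1 at 4.76 and 3.63 (-0.38). None of 15 matricellular genes was called, and Postn was at 5.72 and 3.06 (-0.88).

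Among 23 proteases and inhibitors of matrix, 3 were higher and 1 was lower, beside 1.39% and 1.42% of all measurable genes. Serpine2, an inhibitor of thrombin and plasminogen activators, was at 1.99 in mock and 5.89 in ligated cells (1.52), and at 2.18 and 7.80 in the subset cluster (1.79). Ctsk, a collagen-degrading cathepsin, was at 0.169 and 0.591 (1.36), and Adamts10 at 0.158 and 0.517 (1.26). Timp3, the matrix-bound inhibitor of metalloproteinases, was at 22.6 and 10.4 (-1.11). In the subset cluster 5 of the 23 were higher and 0 lower, so Timp3 was not called there. After the subtraction 1 of the 23 was higher and 3 were lower. Of 31 adhesion and junction genes 0 were higher and 2 lower, Mcam and the integrin gene Itgb1, the latter at 14.2 and 6.11 (-1.20). The gap junction gene Gja4 was level, at 5.39 and 5.54 (0.04).

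Chemokines went both ways. Ccl11, which attracts eosinophils, was at 8.36 in mock and 1.87 in ligated cells (-2.10), and at 9.89 and 2.15 in the subset cluster. It was similarly lower in the fibroblast-like cluster 3, at 8.36 and 2.14 (-1.92). Ccl4, Ccl5 and Cxcl14 were the 3 higher genes of 23. Ccl5, a product of T and natural killer cells, was at 0.0573 and 7.90 and was higher in 6 of the other 8 clusters. The subtraction left little or nothing of Ccl5 in either library (difference 0.00), and Cxcl14 also differed by 0.00 then. The natural killer markers of cluster 6, summing to 7.02 in ligated cells, moved with Ccl5.

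Interferon response genes were higher in the ligated library. Of 37 measurable genes 6 were higher and 0 lower, beside 1.39% and 1.42% of all measurable genes, with a median of 0.57. The median was 0.66 in the subset cluster with 7 higher and 0.33 after the subtraction with 4 higher. Oasl2, an oligoadenylate synthetase-like gene, was at 0.0735 in mock and 0.640 in ligated cells (2.09), Irf7, a factor that amplifies interferon, at 0.250 and 0.949 (1.58), and Ifit3, an antiviral effector, at 0.285 and 1.04 (1.57). The genes with the highest levels in the list did not pass the rule: Ifitm3 was at 21.5 and 30.4 (0.50) and Ifitm2 at 9.62 and 9.46 (-0.02). Ifi47, among the 6, shares exon sequence with Olfr56, and reads of the pair cannot be told apart.

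Antigen presentation genes were higher by a larger median, 0.94 over 18 genes with 5 higher and 0 lower, but 0 were called after the subtraction, where the median was 0.24, and 1 in the subset cluster. The class II chaperone Cd74 was at 0.0819 in mock and 1.60 in ligated cells. The subtraction left little or nothing of Cd74 in either library (difference 0.00). Macrophage markers in these cells moved with Cd74. H2-K1, a class I molecule, was at 4.01 and 9.88 (1.28), and at 2.90 and 5.48 in the subset cluster (0.90). Of 11 complement genes 3 were higher and 1 lower; C1qa and C1qb, among the higher, are macrophage markers. Cd59a, which blocks the terminal complement complex, was the lower gene, at 0.614 and 0.250 (-1.03), but in the subset cluster 0 of the 11 were lower.

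Immediate early genes, which tissue dissociation can induce, were mixed, with 6 of 37 higher and 2 lower and a median of 0.19. This list and those after it stand beside 1.39% higher and 1.42% lower among all measurable genes. Jun was at 3.01 in mock and 6.13 in ligated cells (1.00) and Junb at 1.63 and 3.70 (1.13), but Cebpd was at 2.26 and 1.03 (-1.06) and Rhob was lower as above. Of 36 stress genes 1 was higher and 2 lower: Gpx3, a secreted glutathione peroxidase, was at 0.428 and 1.90 (1.92), and Sod3, the extracellular superoxide dismutase, at 1.95 and 0.676 (-1.40). Gstm1, a glutathione transferase, was at 5.97 and 2.76 (-1.08). Among 25 hypoxia and glycolysis genes 0 were higher and only Cox4i2 was lower. Of 17 cell cycle genes 0 were higher and 2 lower, Ccnd1 at 2.48 and 1.14 (-1.06) and the cell cycle inhibitor Cdkn1a at 1.83 and 0.385. In the subset cluster 1 of the 17 was lower, Cdkn1a, and Ccnd1 was not called. Of 13 mitochondrially encoded genes 0 were higher and 1 lower, mt-Atp8, whose exon overlaps mt-Atp6 and which was lower in 6 of the other 8 clusters.

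The largest differences that held after the subtraction and in the subset cluster, and were not spread over 5 or more other clusters, were taken from 124 such genes, 32 higher and 92 lower. Among the 12 largest falls were Ogn, Hbb-bs, Fam220a, Gm12840, Zbtb16, Ccl11, Elmod1, Wfdc1, Ppp1r14a, Atp1b1 and Cdkn1a. Ogn, a small leucine-rich proteoglycan, was at 2.61 in mock and 0.180 in ligated cells (-3.28), while in the fibroblast-like cluster 3 it was at 7.10 and 7.96 (0.16). Elmod1 was at 2.39 and 0.484 (-2.09) and at 0.00932 or less in every other cluster with both libraries together. Wfdc1 was at 1.33 and 0.243 (-2.06), and Atp1b1, a sodium pump subunit, at 1.53 and 0.307. Hbb-bs, a haemoglobin chain, was at 5.90 and 0.566, beside 53.9 and 5.76 over all cells of each library, so it was lower in the ligated library as a whole too.

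The 12 largest rises were Dbndd2, Aarsd1, Pakap, Prol1, Pelo, Oasl2, Btg3, Adnp, Gpx3, Irf7, Ifit3 and Srsf7. Of these, Dbndd2, Aarsd1, Pakap, Pelo and Adnp share exon sequence with another annotated gene, so counting could split their reads. For Aarsd1, Pelo, Btg3 and Adnp the median difference over the other 8 clusters was 2.37, 2.14, 1.64 and 1.71, so they leaned to the ligated library there too. They passed the size rule in 4, 2, 4 and 4 of those clusters. The median difference over those clusters was 1.34 for Dbndd2 and 1.04 for Prol1, and among the falls -1.84 for Fam220a, -1.23 for Zbtb16 and -1.02 for Cdkn1a. Prol1, a secretory gene of acinar cells, was at 0.281 in mock and 2.04 in ligated cells, beside 137 in cluster 8. It is itself an acinar marker and supplied most of that list's sum in cluster 6, 0.321 and 2.16. Gpx3 was higher here but lower in the fibroblast-like cluster 3, at 5.45 and 3.13 (-0.78). Srsf7, a splicing factor gene, was at 0.914 and 2.90 (1.56), with a median difference of 0.97 over the other 8 clusters. That median was 0.87 for Irf7 and 0.64 for Ifit3, but 0.36 for Oasl2, 0.34 for Gpx3 and 0.02 for Pakap.

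**Figure D5:**
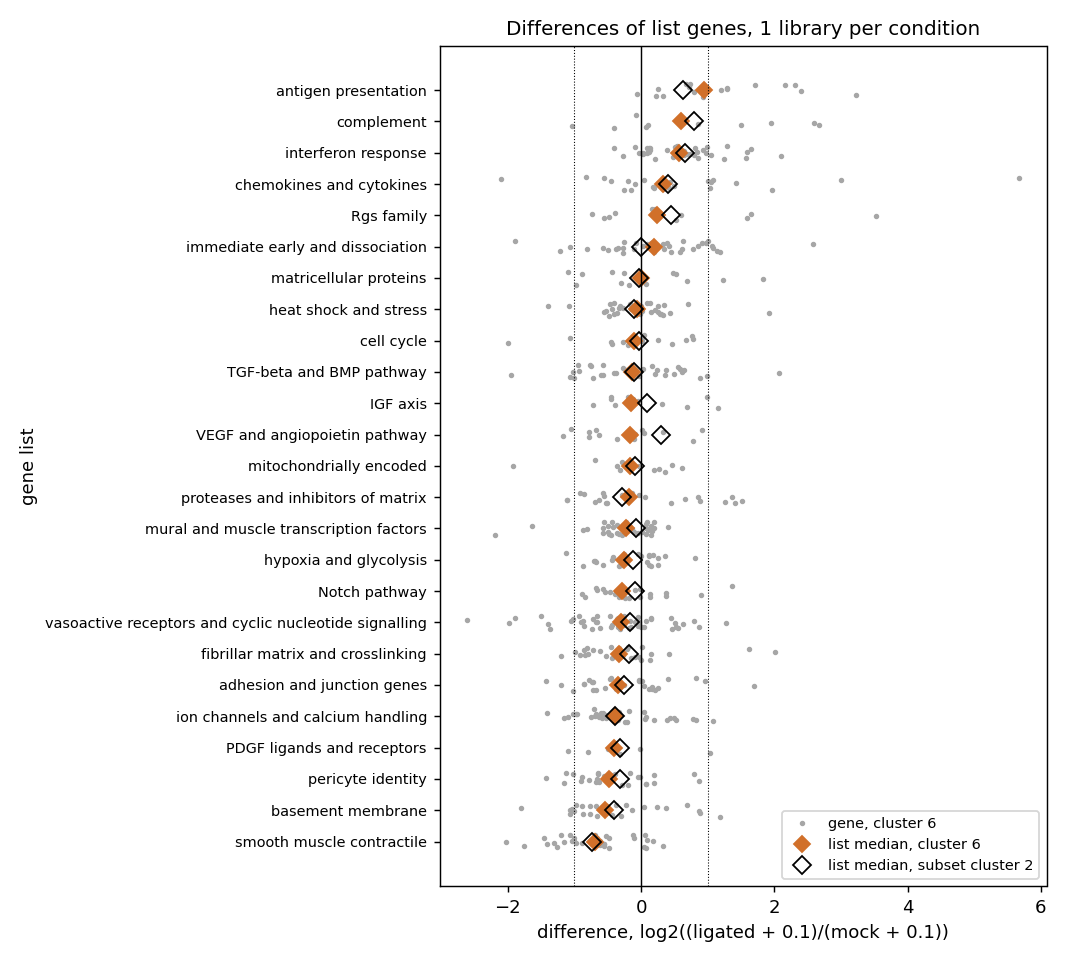
Differences between the libraries, log2((ligated + 0.1)/(mock + 0.1)), for the measurable genes of 25 lists in cluster 6 (grey points), with each list's median in cluster 6 (filled orange diamond) and over the same genes in the mural-like cluster of the subset (open diamond). The contractile and basement membrane medians, -0.70 and -0.54, lie furthest left, and the antigen presentation, complement and interferon medians furthest right.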

How the data were processed

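The study measured single-cell RNA in 1 ligated and 1 mock library. Cell Ranger 6.0.1, Seurat and the genome build mm10 are named in the submitters' processing notes; the gene annotation, cell filters, clustering settings and any removal of doublets are not given in the sources used here. The authors deposited 4 tables of cluster means (12 clusters of all cells and 5 of the subset, each joint and split by condition), and the deposited values are other than counts: linear means of UMIs per 10000 UMIs of a cell, a reading that rests on columns summing to 10000. No count model was used, doublets were not called, and cell barcodes shared between libraries could not be counted.

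Cell numbers were recovered from the weights that join split to joint values (tolerance 2e-09), and UMI totals from genes seen in single cells, a sample biased to deeper cells. Row order restored 21 gene names that the split files held as dates. Symbols above 0 in 1 library only (3150 ligated, 684 mock) were left out as annotation differences, except 159 pairs joined through a shared gene record; 0 columns lacked a sample. List genes were measurable, and entered counts and medians, where their values in mock and ligated averaged 0.05 or more. The subtraction removed from each library's values its mean profile times the median other-cell share. Results below 0 were set to 0, so a difference near 0 after it can mean that little or nothing was left in either library.

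The cells, the 25 gene lists (737 genes, 718 with a value) and the 17 marker lists were chosen with earlier results of these data known. Genes are named from those lists, from the 20 most enriched genes and from the 12 largest rises and falls that held after the subtraction and in the subset cluster and were not past the rule in 5 or more of the other 8 clusters with at least 50 cells per library. Some genes that meet these rules are not reported here. The marker lists of B cells, neutrophils, skeletal muscle, neurons and lymphatic endothelium summed to no more than 0.254 in cluster 6. Ductal markers summed to 2.14 in mock and 5.01 in ligated cells, basal or myoepithelial markers to 3.09 and 6.31, the single adipocyte marker with a value to 0.506 and 0.195, and Schwann markers to 10.2 and 7.72, led by Cryab and Pmp22, which mural cells also express. Alternatives varied the pseudocount, minimum, size, joining, subtraction, grouping and centring; scripts were tested on simulated data. Python 3.11.15, pandas 2.3.3, NumPy 2.4.6, SciPy 1.17.1 and matplotlib 3.10.9 were used.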

Additional observations from a re-analysis of the deposited data

Results flagged for a closer look

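Ednrb went opposite ways in neighbouring cells of the vessel wall. In cluster 6 it was at 23.03 in mock and 8.65 in ligated cells, a difference of -1.40. In the endothelial-like cluster 0 it was at 2.69 and 6.96, a difference of 1.34, and in the endothelial-like cluster 4 at 0.754 and 1.86, a difference of 1.19. All 3 differences pass the size rule, and after the subtraction cluster 6 still differed by -1.48. With 1 library per group the opposite directions were not tested.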

How the results depend on the processing

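The counts of 147 higher and 150 lower genes became 38 and 27 with a pseudocount of 1, 386 and 268 with no minimum value, 40 and 56 with a minimum of 2, and 62 and 17 with a difference of at least 2. They were 56 and 256 after the subtraction and 373 and 55 when centred on genes enriched in cluster 6, an alternative added after seeing the data. The share of calls that were higher, 49.5% as reported, was 78.5%, 17.9% and 87.1% under the last 3 of these. The subtraction took 21.8% of the ligated but 8.06% of the mock mean profile, and the centring took -0.40 off every difference. These settings therefore move the balance by their arithmetic. The cause of the shift with a difference of at least 2 was not tested. Other alternatives, among them the subset cluster and leaving out genes that share exons (also added later), kept both counts within 1.5 times. The pericyte median stayed between -0.075 and -0.49 and the contractile median between -0.30 and -0.79 under every alternative run. As a share of clusters 0, 3, 4 and 6, cluster 6 was 8.32% in ligated and 5.48% in mock. Of 102 named differences 48 passed the size rule, and 0 of these reversed while past it. With a pseudocount of 1, 27 lost it, with centring on enriched genes 11, and in the subset cluster 6. The 48 include the 12 largest rises and 12 largest falls, chosen because they pass after the subtraction and in the subset cluster. Those genes could not lose the rule in these settings, so the count of 6 does not measure how well calls hold. With 1 library per group no library could be left out. No paired analysis was possible because each group has 1 library. List medians closer to 0 than -0.40 turn positive under that centring, and those of the Rgs, VEGF, IGF, matricellular and immediate early lists change sign after the subtraction or in the subset cluster.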
